A study of Mus musculus with 8 samples.

Results

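Mouse embryonic stem cells without β-catenin were compared with their parental line in vehicle, that is, without the drug that the study used to activate Wnt signalling. The comparison rests on 4 of the 8 libraries of the series: 2 of the parental line (CTNNB1+/+) and 2 of the β-catenin knock-out (CTNNB1-/-), each kept for 72 hours with DMSO at 0.3 μl/ml. Both lines are of the 129/Ola background, derive from the blastocyst and grew without feeder cells on gelatin in serum-containing medium; 2 further groups of 2 libraries received the GSK3 inhibitor CHIR99021 at 3 μM in place of DMSO. The members are all genes that passed a filter on low counts, 17739 of the 48440 in the deposited table. The labels give 1 source for the parental and 1 for the knock-out cells and do not say if the latter are 1 clone. An effect of losing β-catenin and any other difference between these lines therefore cannot be told apart. The labels do not say that the replicates were separate cultures, so the p-values speak for the scatter of these libraries alone, and that scatter may be technical.

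β-Catenin has 2 well-known roles. At cell junctions it ties E-cadherin to α-catenin and so to actin, a place that its relative plakoglobin can also take. In the Wnt pathway it is phosphorylated by GSK3 within a complex of Axin and APC and destroyed; a Wnt ligand or a GSK3 inhibitor stops this, and β-catenin then enters the nucleus and joins the TCF/LEF factors at target genes such as Axin2, Sp5, T and Cdx1. In embryonic stem cells it is known for easing the repression of pluripotency genes by Tcf7l1.

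The libraries held 23650572 and 24417695 estimated counts (parental) and 27515672 and 25794467 (knock-out), so that 1 CPM, the unit of levels scaled to library size, stood for 23.3 to 27.6 counts. On log2 CPM the replicates correlated at 0.987 and 0.989 across genes, and libraries of different lines at 0.985 to 0.986. Embryonic stem cell markers summed to 5357 and 5367 CPM in the parental and to 5200 and 4960 CPM in the knock-out libraries. Of 8 fibroblast markers, which would mark feeder cells, Col3a1, Postn, Lum and Dcn were at 0 in all 4 libraries. The list summed to 9.40 and 11.1 CPM in parental and 13.3 and 14.8 CPM in knock-out libraries. Thy1 of this list rose from 3.78 and 3.9 CPM in parental to 6.60 and 7.44 CPM in knock-out libraries. It was the only member called, by the threshold given below. The 7 defining markers each set for trophoblast, neural ectoderm and mesoderm summed to 5.24 and 5.68, 101 and 103 and 2.66 and 2.86 CPM in parental and to 5.76 and 5.49, 107 and 99.8 and 3.52 and 3.01 CPM in knock-out libraries.

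Ctnnb1 (ENSMUSG00000006932, GRCm38 chromosome 9, 120929216 to 120960507) checked the labels. It stood at 888 and 906 CPM in the parental libraries and at 7.98 and 10.7 CPM in the knock-out, or -6.59 ± 0.09 on the log2 scale (SE of the fold change; adjusted p = 7.48e-12). The level in the knock-out was about a hundredth of the parental one, in both libraries. The gene-level table does not show from which exons the remaining counts came.

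Genes were called at a Benjamini-Hochberg adjusted p under 0.05. Of the 17739 genes 1198 (6.75%) were called: 556 (3.13%) higher and 642 (3.62%) lower in the knock-out, against 3777 (21.3%) at an unadjusted p under 0.05. Most changes were small. The median log2 fold change was 0.37 among the higher and -0.28 among the lower genes, and 53 higher and 26 lower genes changed over 2-fold. The median over all genes was 0.003. Among genes at 100 CPM or more 13.6% were called, with a median change of 0.21 in size, and among genes under 1 CPM 0.704%, so weakly expressed genes were called only where they changed a great deal. Protein-coding genes made up 13991 of the tested genes and were called in 7.85%, lincRNAs in 3.44% of 639.

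Many calls were lost when 1 library was left out. Such a fit has fewer degrees of freedom, so a lost call does not by itself show that the difference rested on that library. Of the 1198 genes 261 stayed called when each of the 8 libraries was left out in turn, 137 higher and 124 lower. Without parental replicate 1 there were 357 calls, without parental replicate 2 510, without knock-out replicate 1 561 and without knock-out replicate 2 717. A gene that kept its call in all 8 of these fits is called steady here, and each list below is given with its number of steady genes. List counts and medians cover the members that passed the filter, which a gene can do through the line where it is high, and describe the lists without a test. Over all genes tested 3.13% were called higher and 3.62% lower, the shares to set beside each list. The share called rose with level (0.704% under 1 CPM, 13.6% at 100 CPM or more), and the lists were not matched for level.

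**Figure D1:**
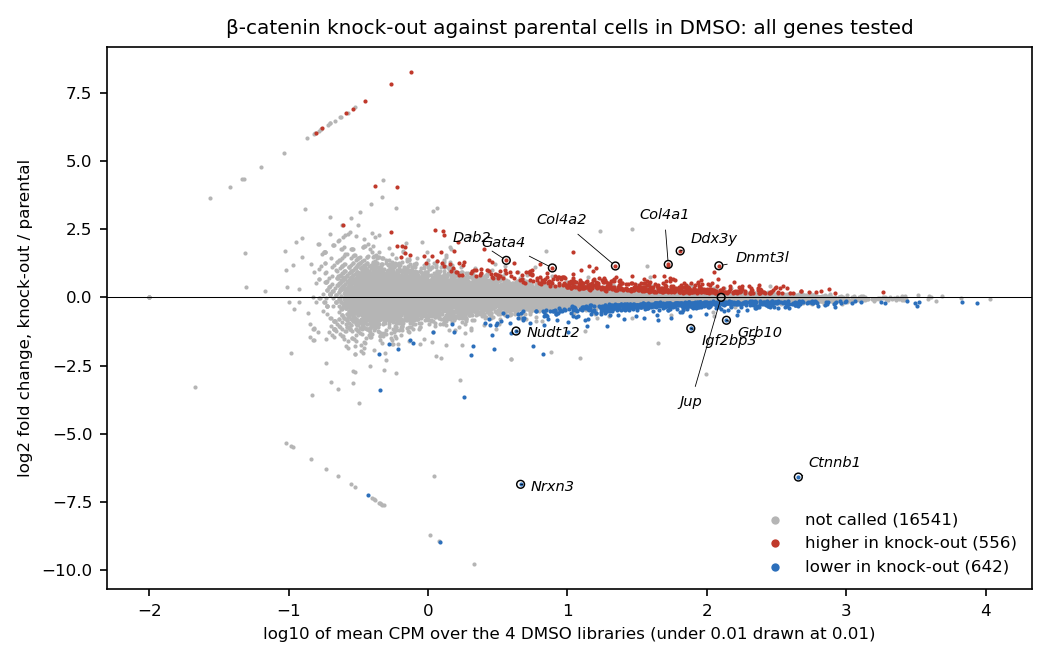
Log2 fold change between knock-out and parental cells (vertical axis) against the log10 of the mean CPM over the 4 DMSO libraries (horizontal axis), 1 point per gene tested. Red points are the 556 genes called higher, blue the 642 called lower, grey the rest; Ctnnb1 and Nrxn3 lie far below all other called genes of their level, Jup lies at 0, and the slanted lines of points at low levels are genes with no count in 1 of the groups.

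Of 21 tested genes for catenins, cadherins and their partners 2 rose (9.52%) and 3 fell (14.3%), against 3.13% and 3.62% of all genes, with a median of -0.01; 1 of each was steady, Pkp2 and Ctnnb1 itself. Cdh3, the gene of P-cadherin, fell from 21.7 and 21.2 to 15.3 and 16.2 CPM (-0.45 ± 0.07, adjusted p = 0.00583; 0.0589 without parental replicate 1 and 0.0528 without knock-out replicate 1). In 49.6% of all genes tested the 2 groups did not overlap, so groups that stay apart are common here. Jup, which encodes plakoglobin, was at 125 and 128 CPM in parental and 131 and 122 CPM in knock-out libraries, with groups that overlap. The log2 fold change of Jup was -0.001 ± 0.05 (adjusted p = 0.993). Cdh1, the gene of E-cadherin, was at 227 and 215 against 243 and 240 CPM, a difference of 0.13 ± 0.04 that was not called (adjusted p = 0.105). Ctnna1, for α-catenin, was at 663 and 666 against 645 and 626 CPM (adjusted p = 0.307). Pkp2, a plakophilin of desmosomes, rose from 14.9 and 13.98 to 21.6 and 23.73 CPM (0.65 ± 0.08, adjusted p = 0.00119).

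In the destruction complex and its partners 1 of 20 genes rose (5%) and 1 fell (5%), against 3.13% and 3.62% of all genes. Neither was steady. Gsk3a (adjusted p = 0.614), Gsk3b (0.340), Apc (0.567) and Axin1 (0.747) were not called, and their log2 fold changes ran from -0.10 to 0.06. Among 28 tested ligands, receptors and secretion genes 1 was called, a lower one (3.57%, against 3.62% of all genes). It was Porcn, which encodes the enzyme that attaches the lipid to Wnt proteins, and it fell from 24.1 and 24.3 to 18.4 and 19 CPM (-0.37 ± 0.06, adjusted p = 0.00582; 0.0510 without parental replicate 1).

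The Wnt targets Axin2, Cdx1, T and Sp5 were at low levels in both lines, while Ccnd1, for cyclin D1, was at 212 and 215 against 201 and 193 CPM and was not called (adjusted p = 0.121). Of the 22 tested targets 1 was called higher (4.5%, against 3.13% of all genes) and 0 lower by edgeR. The counts were the same by DESeq2 and limma-voom, and 1 was lower at an unadjusted p under 0.05. Of the 18 TCF/LEF factors and cofactors 0 were called by any of the 3 tools, and 2 were higher and 1 lower at an unadjusted p under 0.05. The medians were 0.11 and 0.04. Axin2 was at 3.86 and 4.69 CPM in parental and at 5.18 and 4.85 CPM in knock-out libraries (adjusted p = 0.318). Cdx1 was at 1.80 and 1.83 against 0.943 and 1.79 CPM (adjusted p = 0.348). Neither difference was called. For Axin2 both knock-out libraries lie above both parental ones. For Cdx1 both knock-out libraries lie below both parental ones, 1 of them close to the parental pair.

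T, the mesoderm regulator Brachyury, had 16 counts in both parental and 18 in both knock-out libraries, which is a ratio of 0.991 (95% counting interval 0.477 to 2.08). Sp5, a zinc-finger target of the pathway, had 3 and 10 counts, a ratio of 2.94 (0.756 to 16.6). These intervals are exact and cover counting error only, so the counts leave room for a change of either gene within its bounds. Myc, which drives growth and is counted among the targets, was the called one: it rose from 63.2 and 64.8 to 88.5 and 76.8 CPM (0.37 ± 0.07, adjusted p = 0.00834; 0.0725 without parental replicate 1).

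The factors themselves showed the same picture. Tcf7l1, the repressor of pluripotency genes, was at 53.5 and 57.7 against 60.8 and 62.7 CPM (0.15 ± 0.06, adjusted p = 0.192), Tcf7l2 at 14.7 and 15.9 against 16.46 and 18.01 CPM (adjusted p = 0.271). Tcf7 was at 26.7 and 27.5 against 26.3 and 28.6 CPM (adjusted p = 0.904). Lef1 stayed between 0.343 and 0.689 CPM in all 4 libraries. Libraries of the lines overlap for Tcf7 and Lef1 and do not for Tcf7l1 and Tcf7l2, whose differences still missed the threshold.

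With CHIR99021 the lines differed at these targets (adjusted p from 8.56e-10 to 3.88e-07): Axin2 averaged 42.0 CPM in parental and 2.85 CPM in knock-out libraries, Sp5 5.99 and 0.0564, Cdx1 104.5 and 3.61 and T 11.3 and 0.108. The Sp5 promoter is shown because it holds the core sequence that TCF/LEF factors bind. It is the RefSeq window from 250 bases before to 50 bases after the annotated start, on the plus strand of GRCm38.p6, chr2:70474673-70474972, and the capitals mark the core CTTTGAT:
Sp5: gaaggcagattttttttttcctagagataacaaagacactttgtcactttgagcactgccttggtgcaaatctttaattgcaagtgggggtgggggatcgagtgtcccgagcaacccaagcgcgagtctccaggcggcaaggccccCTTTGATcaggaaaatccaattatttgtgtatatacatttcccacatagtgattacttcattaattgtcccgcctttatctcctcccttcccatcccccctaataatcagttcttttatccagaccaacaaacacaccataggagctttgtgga

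CTTTGAT or its reverse complement ATCAAAG stood in 364 of the 14395 windows of 300 bases that RefSeq gives for 11295 of the tested genes, which is 2.53%. The share was 3.05% of 525 windows of genes called higher and 2.11% of 616 windows of genes called lower. Among the Wnt targets 2 of 20 windows held it, those of Sp5 and Tnfrsf19. A match says only that these letters stand in the window.

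Extraembryonic endoderm genes had the largest median of the 49 lists. Primitive endoderm is the layer of the blastocyst that lines the cavity, forms the yolk sac and lays down basement membrane. Of 27 listed genes 21 passed the filter. Of these 8 rose and 1 fell (Apoe, not steady), against 3.13% and 3.62% of all genes; 5 of the higher genes were steady, and the median log2 fold change was 0.88. Dab2, an endocytic adaptor, rose from 1.98 and 2.12 to 5.33 and 5.15 CPM (1.35 ± 0.16, adjusted p = 7.48e-04). Gata4, a transcription factor of this lineage, rose from 4.21 and 5.81 to 10.2 and 10.9 CPM (1.08 ± 0.14, adjusted p = 0.00171). Lrp2, the receptor megalin, rose from 43.8 and 43.0 to 67.4 and 64.4 CPM (0.60 ± 0.06, adjusted p = 3.00e-04). In these 3 genes the groups did not overlap, which holds for all 1198 called genes and so adds no support. Of the lineage's other regulators Sox17 and Foxa2 were under 0.2 CPM and Gata6 under 1 CPM in all 4 libraries, and Sox7, at 14.3 and 13.9 against 12.7 and 11.6 CPM, was not called (adjusted p = 0.295). The 7 markers set for primitive endoderm cells, Gata4 and Dab2 among them, summed to 22.6 and 23.2 CPM in parental and 31.6 and 30.9 CPM in knock-out libraries. In bulk RNA more cells of a type and more RNA per cell cannot be told apart.

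The same list holds the collagen IV pair, the genes with the smallest adjusted p in it. Col4a1 rose from 30.5 and 33.4 to 76.5 and 71.0 CPM (1.20 ± 0.07, adjusted p = 1.06e-05). Col4a2 rose from 13.7 and 13.8 to 31.3 and 29.6 CPM (1.15 ± 0.07, adjusted p = 6.12e-06). These are the α1 and α2 chains of basement membrane collagen, which assemble together. Each gene more than doubled, by 2.31-fold and 2.22-fold. They lie head to head on chromosome 8, and their promoter windows are shown because they overlap and the genes moved together. The annotated starts lie 21 bases apart and the transcripts' first bases overlap. The windows are chr8:11312777-11313076 on the minus strand (Col4a1) and chr8:11312555-11312854 on the plus strand (Col4a2), GRCm38.p6 from RefSeq, each written 5′ to 3′ on its own strand, and the capitals mark the 78 bases that both hold, as reverse complements of each other:
Col4a1: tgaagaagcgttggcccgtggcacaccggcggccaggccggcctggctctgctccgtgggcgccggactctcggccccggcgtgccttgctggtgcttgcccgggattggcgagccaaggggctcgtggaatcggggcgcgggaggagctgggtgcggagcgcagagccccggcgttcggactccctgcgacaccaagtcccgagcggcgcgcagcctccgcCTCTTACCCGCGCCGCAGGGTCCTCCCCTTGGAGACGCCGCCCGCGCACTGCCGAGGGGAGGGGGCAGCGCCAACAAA
Col4a2: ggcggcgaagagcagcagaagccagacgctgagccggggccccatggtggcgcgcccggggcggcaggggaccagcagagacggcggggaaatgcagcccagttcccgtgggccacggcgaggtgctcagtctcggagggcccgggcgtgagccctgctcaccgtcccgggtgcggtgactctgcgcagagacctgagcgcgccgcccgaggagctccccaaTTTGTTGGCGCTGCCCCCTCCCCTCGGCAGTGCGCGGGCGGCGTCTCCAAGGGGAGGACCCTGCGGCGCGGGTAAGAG

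Matrix genes rose beyond collagen IV. Of 25 tested genes for basement membrane, matrix and integrins 13 rose (52%) and 1 fell (4%), against 3.13% and 3.62% of all genes. The median was 0.18, and 6 of the higher genes and the lower one were steady. Beside the collagen IV pair the steady higher genes were Lama5, Itga3, Col18a1 and Itgb4. Itga3, an integrin that binds laminin, rose from 99.2 and 103 to 140 and 128 CPM (0.41 ± 0.05, adjusted p = 0.00110), and Lama5, a laminin chain, from 267 and 281 to 354 and 354 CPM (0.37 ± 0.04, adjusted p = 8.96e-04). The gene that fell was Fn1, for fibronectin, from 788 and 794 to 666 and 670 CPM (-0.24 ± 0.04, adjusted p = 0.00390). The laminin chains of the early embryo were not called: Lama1 (adjusted p = 0.293), Lamb1 (0.0651) and Lamc1 (0.418). The summed primitive endoderm markers given above were higher in the same 2 libraries, and their part in the matrix result was not tested.

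**Figure D2:**
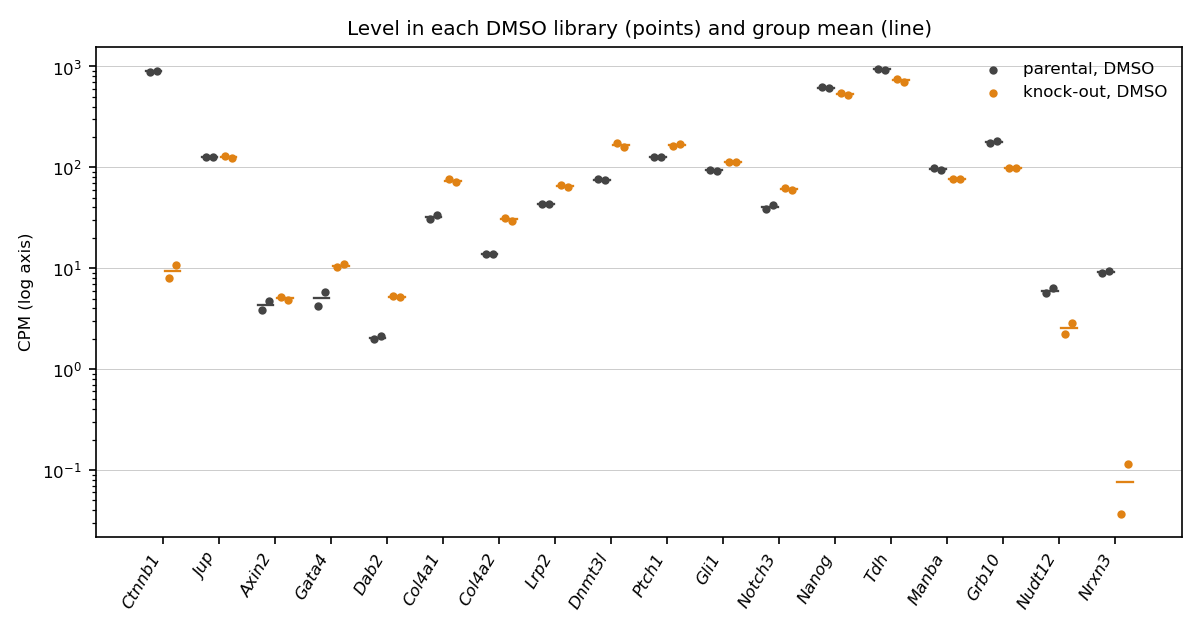
Level in CPM on a log axis of 18 genes in each DMSO library, dark points for the 2 parental and orange points for the 2 knock-out libraries, with lines at the group means. Jup and Axin2 lie at like levels in both lines, Gata4, Dab2, Col4a1, Col4a2, Lrp2 and Dnmt3l lie higher in the knock-out, and Ctnnb1 and Nrxn3 fall by far the most.

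Of 24 naive pluripotency genes 8 fell (33.3%) and 1 rose (4.17%), against 3.62% and 3.13% of all genes. The median was -0.08, and 2 of the lower genes were steady. Of the 2280 genes tested at 100 CPM or more, where Nanog, Tdh and Klf4 lie, 201 were called lower. Nanog, a core factor, fell from 620 and 615 to 549 and 527 CPM (-0.20 ± 0.04, adjusted p = 0.00753; 0.0754 without parental replicate 1 and 0.0555 without parental replicate 2). Tdh, the threonine dehydrogenase on which these cells depend, fell from 938 and 930 to 749 and 707 CPM (-0.36 ± 0.04, adjusted p = 3.60e-04). Manba, a lysosomal mannosidase, fell from 99.34 and 94.98 to 77.3 and 75.8 CPM (-0.34 ± 0.05, adjusted p = 0.00166). Tdh and Manba are the steady ones, and neither is a transcription factor. Pou5f1 was at 1569 and 1527 against 1537 and 1456 CPM (adjusted p = 0.522), Esrrb at 748 and 756 against 716 and 670 CPM (adjusted p = 0.106) and Sox2 at 305 and 285 against 268 and 276 CPM (adjusted p = 0.127). The groups overlap for Pou5f1 only, and none of the 3 was called. Klf4 fell from 242 and 229 to 208 and 214 CPM (-0.16 ± 0.04, adjusted p = 0.0374), and leaving out any 1 of the 8 libraries ended the call, with adjusted p up to 0.283.

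Of 22 general pluripotency genes 4 rose (18.2%, against 3.13% of all genes) and 0 fell by edgeR, DESeq2 or limma-voom. At an unadjusted p under 0.05, 3 were lower. The median was 0.09, and the steady higher genes were Dnmt3l and Rex2. Dnmt3l, the cofactor of the de novo DNA methyltransferases, rose from 75.8 and 75.2 to 176 and 161 CPM (1.16 ± 0.05, adjusted p = 9.44e-07), the smallest adjusted p of all higher genes. Dnmt3a, one of its partner enzymes, rose from 91.5 and 87.8 to 134 and 125 CPM (0.53 ± 0.05, adjusted p = 1.34e-04). Of 18 genes for DNA methylation and its removal these 2 rose (11.1%) and 3 fell (16.7%), the latter not steady. Idh2 was among the lower ones (-0.25 ± 0.05, adjusted p = 0.0151). Uhrf1 was called lower too, and lost the call with edgeR on the 4 DMSO libraries alone (-0.18, adjusted p = 0.0514). Dnmt3b was at 89.2 and 91.0 against 106 and 96.7 CPM (adjusted p = 0.102), Dnmt1 at 401 and 396 against 388 and 374 CPM (adjusted p = 0.362) and Tet1 at 787 and 786 against 728 and 771 CPM (adjusted p = 0.338). Among these enzymes and the cofactor a change was called for Dnmt3l and Dnmt3a and not for Dnmt3b, Dnmt1 or Tet1.

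Several signalling pathways carried higher genes and few lower ones. In the Hedgehog pathway 5 of 14 genes rose (35.7%, against 3.13% of all genes) and the median was 0.20. By edgeR, DESeq2 or limma-voom 0 fell, and 1 was lower at an unadjusted p under 0.05. Ptch1, a Hedgehog receptor and target, rose from 126 and 126 to 164 and 169 CPM (0.40 ± 0.04, adjusted p = 3.53e-04). Gli1, the transcription factor that is itself a target, rose from 94.5 and 92.0 to 114 and 113 CPM (0.29 ± 0.04, adjusted p = 0.00292). Both were steady and are common reporters of the pathway. The ligand Ihh was at 0.472 and 0.498 against 1.01 and 0.534 CPM (adjusted p = 0.421), and Smo, the signal transducer, at 43.7 and 46.1 against 41.8 and 44.4 CPM (adjusted p = 0.615).

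In the Notch pathway 3 of 16 genes rose (18.75%, against 3.13% of all genes) and 0 fell, with a median of 0.12. At an unadjusted p under 0.05, or by DESeq2 or limma-voom, 0 were lower. The receptor Notch3 rose from 38.2 and 42.2 to 61.8 and 60.3 CPM (0.60 ± 0.07, adjusted p = 7.21e-04), and the ligand Jag2 from 12.3 and 13.4 to 17.91 and 20.03 CPM (0.56 ± 0.08, adjusted p = 0.00290). Both are steady. The target Hes1 was at 47.0 and 48.0 against 38.5 and 45.9 CPM and was not called (adjusted p = 0.277).

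In the Nodal pathway 4 of 20 genes rose (20%) and 1 fell (5%), against 3.13% and 3.62% of all genes, with a median of 0.03. The steady genes were Skil, an inhibitor of SMAD proteins that rose from 75.9 and 78.3 to 104 and 110 CPM (0.47 ± 0.05, adjusted p = 3.83e-04), Pcsk6, a protease that activates Nodal (83.5 and 86.5 to 107 and 106 CPM, 0.32 ± 0.04, adjusted p = 0.00159), and Lefty2. Lefty2, an inhibitor of Nodal, fell from 81.5 and 81.8 to 65.5 and 64.4 CPM (-0.33 ± 0.05, adjusted p = 0.00416). Its neighbour and close relative Lefty1 was at 55.4 and 50.1 against 68.8 and 64.7 CPM and was called higher (0.34 ± 0.07, adjusted p = 0.0201); it was not steady, with an adjusted p of 0.152 without parental replicate 2 and 0.119 without knock-out replicate 1. The pair are near copies of each other, so their counts depend on how reads were divided between them.

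Of 24 p53 targets 7 rose (29.2%, against 3.13% of all genes) and 0 fell, with a median of 0.16. At an unadjusted p under 0.05, or by DESeq2 or limma-voom, 0 were lower. Phlda3 and Plk2 were steady. Phlda3, an inhibitor of AKT, rose from 40.1 and 42.6 to 51.4 and 54.6 CPM (0.36 ± 0.05, adjusted p = 0.00314) and the kinase Plk2 from 21.7 and 18.9 to 28.7 and 29.8 CPM (0.53 ± 0.08, adjusted p = 0.00320). Cdkn1a, the cell cycle inhibitor p21, was at 25.1 and 26.4 against 28.8 and 28.3 CPM and was not called (adjusted p = 0.198).

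Of 28 imprinted genes, which are read from 1 parental allele, 7 rose (25%) and 2 fell (7.14%), with a median of 0.11. Over all genes 3.13% rose and 3.62% fell. Grb10, which dampens insulin and IGF receptor signalling, fell from 173 and 182 to 98.6 and 99.5 CPM (-0.84 ± 0.05, adjusted p = 3.67e-06). Cdkn1c, the cell cycle inhibitor p57, rose from 41.3 and 39.3 to 58.7 and 56.0 CPM (0.51 ± 0.06, adjusted p = 8.63e-04), and the growth factor Igf2 from 3.26 and 4.03 to 7.03 and 6.98 CPM (0.94 ± 0.14, adjusted p = 0.00269). Those 3 were the steady members. Zdbf2, an imprinted gene outside the list, fell from 203 and 199 to 127 and 132 CPM (-0.64 ± 0.04, adjusted p = 2.17e-05), and Sfmbt2, another one, rose from 33.6 and 32.2 to 72.4 and 74.0 CPM (1.15 ± 0.06, adjusted p = 2.31e-06).

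**Figure D3:**
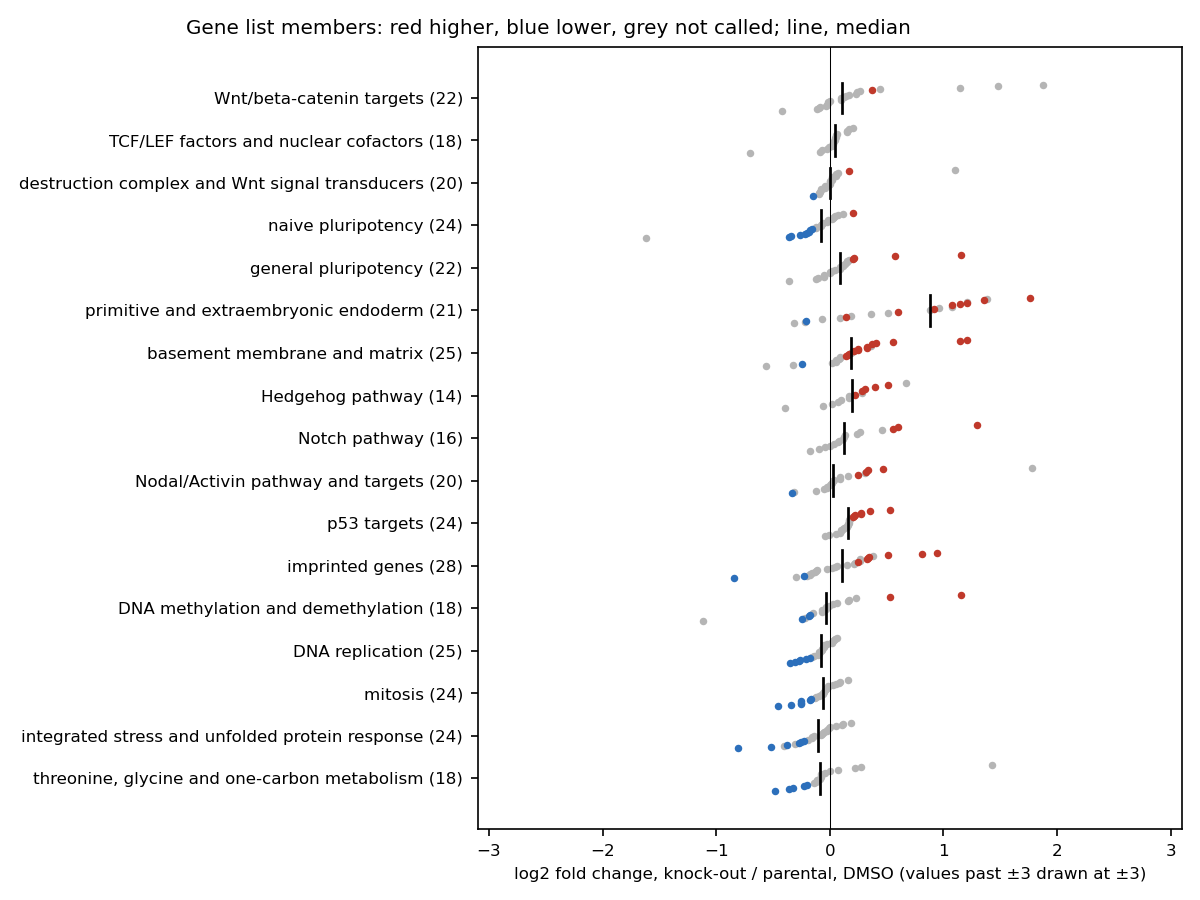
Log2 fold change between knock-out and parental cells in DMSO for each tested member of 17 gene lists, with the number of members in brackets; red members were called higher, blue ones lower, grey ones not, and the black line is the median. The median of the extraembryonic endoderm list lies at 0.88, those of the other lists shown between -0.11 and 0.20.

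The lists for cell division and the stress response held lower genes, several of them from 1 chromosome. Of 24 mitosis genes 7 fell (29.2%, against 3.62% of all genes) and 0 rose by edgeR, with a median of -0.06. Higher were 1 at an unadjusted p under 0.05, 1 by DESeq2 and 0 by limma-voom. Of the 7 lower genes 6 lie on the distal part of chromosome 2, described below. Bub1, a spindle checkpoint kinase, fell from 169 and 161 to 119 and 122 CPM (-0.45 ± 0.04, adjusted p = 3.19e-04), Nusap1, a spindle protein, from 133 and 130 to 102 and 106 CPM (-0.34 ± 0.04, adjusted p = 0.00171), and Bub1b from 402 and 407 to 345 and 336 CPM (-0.25 ± 0.04, adjusted p = 0.00279). All 3 steady genes of the list lie there. Of the 17 mitosis genes outside it and outside a region of chromosome 1 described with it, 1 was called, Ccnb1, and it was not steady.

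Of 25 replication genes 6 fell (24%, against 3.62% of all genes) and 0 rose, with a median of -0.08. At an unadjusted p under 0.05, or by DESeq2 or limma-voom, 0 were higher. Among the 6 are 2 of that region. Pcna, the sliding clamp, fell from 343 and 340 to 271 and 265 CPM (-0.35 ± 0.04, adjusted p = 3.60e-04), and Gins1, of the helicase complex, from 50.4 and 51.5 to 41.5 and 41.0 CPM (-0.31 ± 0.05, adjusted p = 0.00412); both are on distal chromosome 2. Rfc4, a subunit of the clamp loader on another chromosome, fell from 89.9 and 90.2 to 74.5 and 75.9 CPM (-0.26 ± 0.04, adjusted p = 0.00490) and was steady too.

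Of 24 genes of the integrated stress and unfolded protein response 6 fell (25%, against 3.62% of all genes), with a median of -0.11. By edgeR, DESeq2 or limma-voom 0 rose, and 2 were higher at an unadjusted p under 0.05. Chac1, which breaks down glutathione, fell from 16.9 and 18.8 to 10.2 and 10.1 CPM (-0.81 ± 0.09, adjusted p = 4.91e-04), and Trib3, a pseudokinase induced by ATF4, from 34.3 and 34.7 to 27.4 and 25.9 CPM (-0.37 ± 0.06, adjusted p = 0.00589). These 2 lie on distal chromosome 2. Asns, asparagine synthetase, lies elsewhere, was steady and fell from 288 and 290 to 238 and 242 CPM (-0.27 ± 0.04, adjusted p = 0.00577). Psat1, of serine synthesis, fell from 474 and 486 to 412 and 409 CPM (-0.22 ± 0.04, adjusted p = 0.00416; 0.0504 without parental replicate 2).

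The region stood out when genes were ordered along the chromosomes. On chromosome 2 from 100 Mb to its end 235 of 772 tested genes were called lower (30.4%) and 5 higher, with a median log2 fold change of -0.19, which is 0.875 of the parental level. Over the rest of that chromosome 18 of 612 genes were called lower and 17 higher, with a median of -0.01. All 9 windows of 10 Mb in the region had medians from -0.24 to -0.19, and the window just before it had a median of -0.02. The region was chosen from these DMSO values as adjacent windows with medians past 0.15 in size. Its DMSO figures therefore follow in part from that choice. The region held 36.6% of all lower calls. Its genes took 3.71% and 3.70% of the counts in the parental libraries and 3.28% and 3.30% in the knock-out libraries. With CHIR99021, in other libraries of the same lines, the median was again -0.19.

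The region holds the mitosis, replication and stress genes named above among many others. The smallest adjusted p were those of Tgm2, Rcn1, Bub1, Platr15 and Pcna. Tgm2, a transglutaminase that cross-links proteins, fell from 68.0 and 71.3 to 38.9 and 42.9 CPM (-0.77 ± 0.06, adjusted p = 8.27e-05), Rcn1, a calcium-binding protein of the endoplasmic reticulum, from 148 and 144 to 108 and 107 CPM (-0.44 ± 0.04, adjusted p = 1.19e-04) and the noncoding Platr15 from 38.98 and 37.97 to 22.95 and 24.95 CPM (-0.68 ± 0.07, adjusted p = 3.25e-04). Acss1, a mitochondrial acetyl-CoA synthetase, fell from 12.8 and 13.7 to 7.03 and 7.02 CPM (-0.91 ± 0.12, adjusted p = 0.00194). Lama5, described above, was among the genes that rose against the region.

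A second, smaller region lay on chromosome 1, from 170 Mb to its end. There 39 of 226 genes were called higher (17.3%) and 1 lower, with a median of 0.17, or 1.12 of the parental level. The 3 windows had medians from 0.15 to 0.18. This region was chosen in the same way from the DMSO values. Its genes took 1.23% and 1.22% of the counts in parental and 1.38% and 1.39% in knock-out libraries. With CHIR99021 the median was 0.19. Pea15a, a death-effector protein that binds ERK, rose from 42.8 and 40.0 to 68.1 and 66.0 CPM (0.70 ± 0.06, adjusted p = 8.47e-05), Ptpn14, a phosphatase that restrains YAP, from 42.7 and 45.9 to 67.0 and 72.9 CPM (0.66 ± 0.06, adjusted p = 1.01e-04) and Igsf9, a cell adhesion protein, from 26.9 and 28.5 to 39.9 and 39.5 CPM (0.52 ± 0.06, adjusted p = 8.12e-04). The single lower gene was Lefty2.

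Outside these 2 regions 16741 genes were tested, 512 called higher (3.06%) and 406 lower (2.43%), and the median was 0.01. Medians of the windows there with at least 10 genes at 5 CPM or more ran from -0.16 to 0.10. The regions were chosen from these data as 2 or more adjacent windows of this kind with a median past 0.15 in size, a threshold added after the data were seen; 1 single window, on chromosome 11 from 10 to 20 Mb, also passed it (-0.16; -0.03 with CHIR99021), and DNA was not measured here. Of the higher genes named as counts above, all 8 of the extraembryonic endoderm list, 4 of 5 Hedgehog, all 3 Notch and all 7 p53 genes lie outside the regions. Of the lower genes 1 of 7 in mitosis, 4 of 6 in replication and 4 of 6 in the stress response do.

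**Figure D4:**
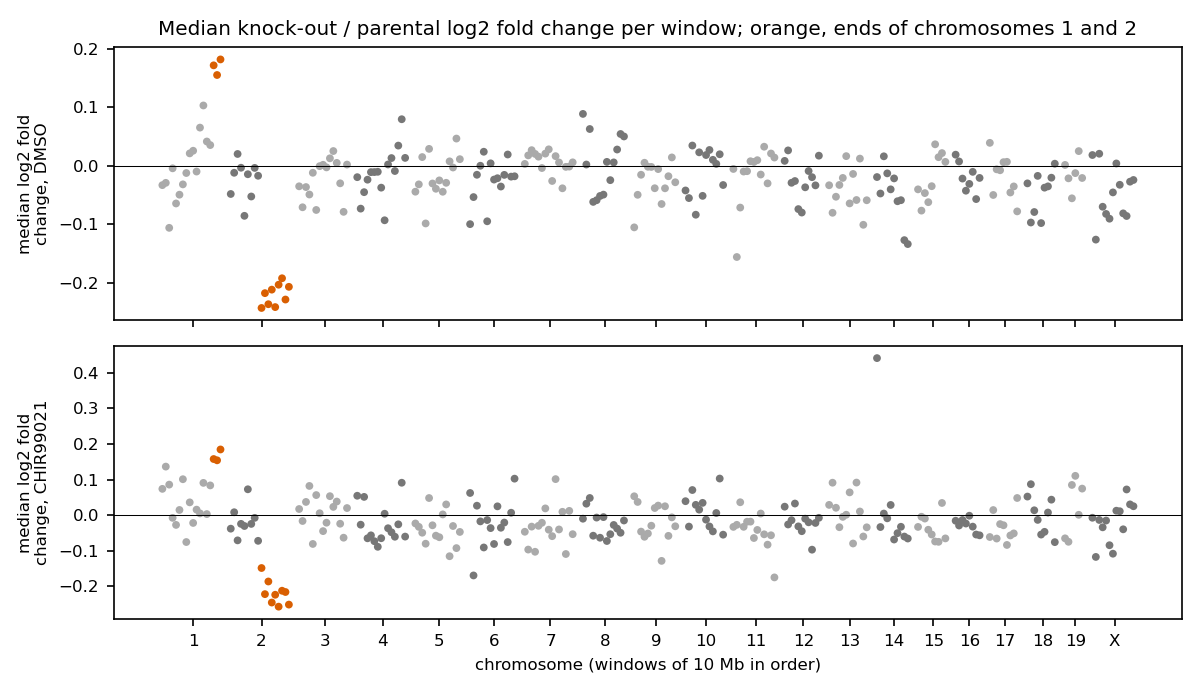
Median log2 fold change between knock-out and parental cells in windows of 10 Mb with at least 10 genes at 5 CPM or more, in chromosome order, for DMSO (top) and CHIR99021 (bottom). Orange windows are the 9 at the end of chromosome 2, from -0.24 to -0.19 in DMSO and from -0.26 to -0.15 with CHIR99021, and the 3 at the end of chromosome 1, between 0.15 and 0.18 in both.

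Among the largest changes were genes of no described list. Nrxn3 (chromosome 12, 88722876 to 90334935), which encodes a neurexin of synapses, was at 8.89 and 9.42 CPM in parental and 0.0363 and 0.114 CPM in knock-out libraries. That is 434 counts against 4, a ratio of 0.00812 (95% counting interval 0.00220 to 0.0209), and with CHIR99021 the knock-out libraries were at 0 and 0.0772 CPM. Ctnnb1 apart, no other gene named here fell as far. Igf2bp3, an RNA-binding protein of fetal tissues, fell from 106 and 105 to 46.5 and 49.3 CPM (-1.14 ± 0.06, adjusted p = 2.67e-06), Pttg1, securin of the anaphase, from 24.5 and 27.5 to 12.5 and 12.5 CPM (-1.06 ± 0.07, adjusted p = 2.22e-05), and Nudt12, an enzyme that hydrolyses NADH, from 5.71 and 6.31 to 2.25 and 2.86 CPM (-1.24 ± 0.16, adjusted p = 0.00171). Each was about halved or lower in both knock-out libraries. D2hgdh (-0.998), Islr2 (-1.06), Clmp (-0.93) and the semaphorin receptor Nrp2 (-0.84) were, with Grb10, the steady genes outside chromosome 2 that remain of the 12 largest falls at 5 CPM or more. Pirt (-0.94, adjusted p = 0.0474) was not steady: the adjusted p was 0.139 and 0.192 without parental replicate 1 or 2, 0.236 and 0.0837 without knock-out replicate 1 or 2, and 0.0575 and 0.0584 without parental CHIR99021 replicate 1 or 2.

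Among called genes at 5 CPM or more the largest rise was that of Ddx3y, an RNA helicase of the Y chromosome, from 31.2 and 29.4 to 89.2 and 108 CPM (1.70 ± 0.09, adjusted p = 2.67e-06). The other Y-linked genes were looked up after this value was seen. Uty rose from 37.99 and 34.32 to 58.7 and 64.7 CPM (0.77 ± 0.06, adjusted p = 1.01e-04), Uba1y by 0.88 ± 0.12 (adjusted p = 0.00193) and Eif2s3y by 0.43 ± 0.04 (adjusted p = 3.83e-04). Of 20 tested Y-linked genes these 4 were called, all higher; Kdm5d was at 3.18 and 3.03 against 3.44 and 3.78 CPM (adjusted p = 0.482). Erdr1, which the annotation places at the far end of Y, was at 71.0 and 63.2 against 71.3 and 64.9 CPM (0.02, adjusted p = 0.932). The log2 fold changes of the 4 called genes were of unequal size, from 0.43 to 1.70.

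Inpp5d, the phosphatase SHIP1, nearly doubled from 77.2 and 78.7 to 146 and 149 CPM (0.92 ± 0.04, adjusted p = 1.04e-06). Crocc2 (1.09), Khdc3, an oocyte protein (1.02), and Sult5a1 (1.002) were also steady and among the 12 largest rises of genes at 5 CPM or more. Mrpl23, a mitochondrial ribosome protein, was at the threshold (adjusted p = 0.04999) and lost its call without either parental DMSO replicate (0.187 and 0.194), either knock-out DMSO replicate (0.230 and 0.0955) or either parental CHIR99021 replicate (0.0633 and 0.0640).

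By the difference in mean CPM the largest rises were in Hnrnpu, Actn4, Cyb5r1, Dnmt3l, Gab1 and Enah and the largest falls in mt-Co1, Ctnnb1, Hsp90aa1, Rn18s-rs5, Ptma and Npm1. These are abundant RNAs, and apart from Ctnnb1 and Dnmt3l they changed by 1.11- to 1.33-fold. Cyb5r1, a cytochrome b5 reductase, rose from 295 and 307 to 388 and 414 CPM (0.41 ± 0.05, adjusted p = 9.11e-04), and Gab1, a docking protein of receptor kinases, from 336 and 333 to 426 and 416 CPM (0.33 ± 0.04, adjusted p = 0.00118). Those 2 were steady, and the other 8 were not; the adjusted p reached 0.347 for mt-Co1 without parental replicate 1. The ribosomal RNA repeat Rn18s-rs5, a sign of how well poly(A) selection removed ribosomal RNA, was at 3567 and 3587 against 3043 and 2735 CPM, and its part in other results was not tested.

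The remaining lists gave few steady calls. Of 32 cytosolic ribosomal proteins 2 fell (6.25%, median -0.06) and of 13 mitochondrially encoded genes 1 fell (7.69%, -0.002). Of 25 sterol synthesis genes 4 fell (16%, -0.06) and of 29 glycolysis and hypoxia genes 3 fell (10.3%, -0.06). None of these was steady, and 3.62% of all genes fell. Of 18 genes for threonine, glycine and one-carbon metabolism 5 fell (27.8%, -0.08), and Tdh alone was steady. Of 16 Hippo pathway genes and targets 1 rose (6.25%) and 2 fell (12.5%), against 3.13% and 3.62% of all genes. Wwtr1, which encodes TAZ, fell from 31.9 and 32.0 to 22.5 and 23.7 CPM (-0.47 ± 0.06, adjusted p = 0.00194). Its partner Tead1 rose from 191 and 193 to 226 and 239 CPM (0.28 ± 0.04, adjusted p = 0.00266). Of 21 interferon and antigen presentation genes 1 rose (4.76%) and 1 fell (4.76%), against 3.13% and 3.62% of all genes. Ifitm3, a restriction factor of membranes, fell from 113 and 125 to 82.8 and 74.0 CPM (-0.61 ± 0.07, adjusted p = 5.79e-04). Bst2 rose from 20.8 and 20.3 to 25.3 and 24.6 CPM (0.28 ± 0.07, adjusted p = 0.0305) and was not steady. Both neural genes that were called, of 17 (11.8%, against 3.13% of all genes called higher), rose and were steady: Crmp1 (0.68) and Stmn2 (0.46).

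The same comparison with CHIR99021 uses 4 other libraries of the same lines. It called 4200 genes (23.7%), 11.2% higher and 12.5% lower, and 780 of the 1198 genes called in DMSO were called there in the same direction, which is 65.1% of the DMSO calls and 18.6% of the CHIR99021 calls; 30 were called in the opposite direction. The difference between the media, an interaction term, was called for 1087 genes (6.13%), 233 of them among the DMSO calls. Of these 233 genes 124 differed more strongly and in the same direction with CHIR99021, 15 less strongly and 94 had the opposite sign. Col4a1 belonged to the first kind, with a log2 fold change of 1.20 in DMSO and 2.26 with CHIR99021 (interaction adjusted p = 2.27e-04), as did Lrp2 (0.60 and 2.23, 4.02e-06), Ptch1 (0.40 and 1.21, 1.22e-05) and Dnmt3a (0.53 and 1.26, 8.68e-05). For Gata4 the values were 1.08 and 1.24 (interaction adjusted p = 0.706) and for Dab2 1.35 and 1.52 (0.760), and neither interaction was called. Myc was of the opposite sign, 0.37 in DMSO and -0.23 with CHIR99021 (0.00356).

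**Figure D5:**
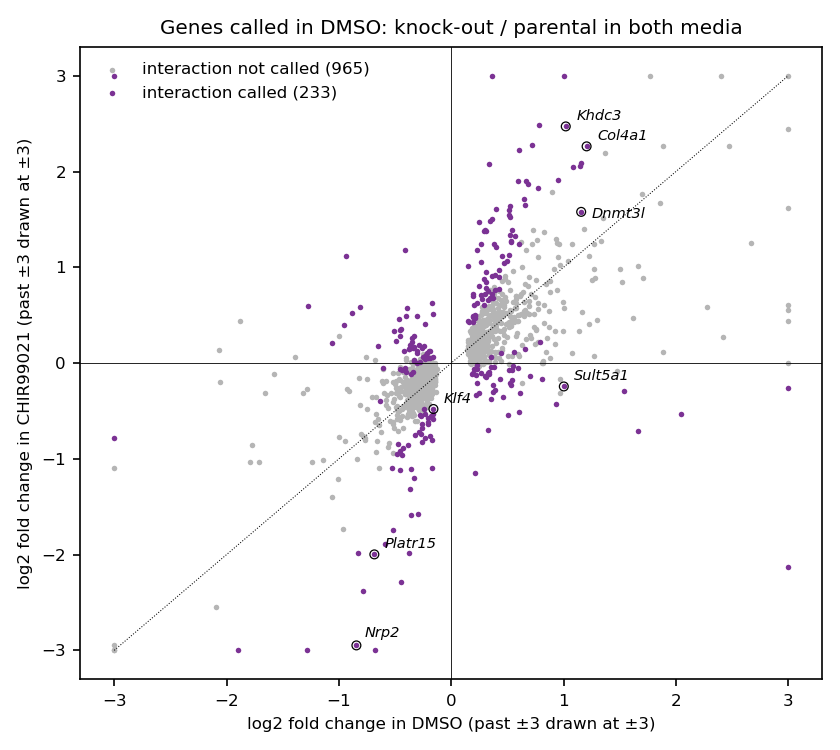
Log2 fold change between knock-out and parental cells in DMSO (horizontal axis) and in CHIR99021 (vertical axis) for the 1198 genes called in DMSO; the dotted line marks equal values, and purple marks the 233 genes whose interaction was called. Col4a1, Khdc3 and Nrp2 lie away from 0 in both media and farther with CHIR99021, and Sult5a1 is higher in DMSO and just below 0 with CHIR99021.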

How the data were processed

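The authors deposited a table of estimated counts per gene, made with kallisto on GRCm38.p4 per the submitters' processing notes; version, transcript set, summing to genes and strand setting are not given in the sources used here. Libraries were TruSeq Stranded mRNA, per the labels' protocols. Estimated counts were rounded. edgeR 4.0.16 (R 4.3.3) filterByExpr (10 counts, 15 in total), TMM factors and a quasi-likelihood F test, 2-sided, were run on all 8 libraries with 1 mean per group, which leaves 4 residual degrees of freedom; the CHIR99021 groups lend their spread and the interaction. P-values were adjusted by Benjamini-Hochberg over 17739 genes. CPM are counts over scaled library sizes, and SE comes from the F statistic. Alternatives used DESeq2 1.42.0 and limma 3.58.1, other filters and size factors, 4 libraries, a block and left-out libraries. The procedure was also run on simulated counts, drawn with the spread fitted to these libraries and with changes only in genes at 5 CPM or more. Such a run cannot speak for changes at lower levels, for the kind of replicates or for other differences between the lines.

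The members, the 49 gene lists (1031 of 1038 symbols matched) and tests were chosen with earlier results of these data known. Named genes were a fixed set of pathway and pluripotency genes, the 12 largest called changes each way at 5 CPM or more with clone names left out, the 6 smallest adjusted p and 6 largest CPM differences each way, and up to 4 members per list or 5 per region, with other list members as values. Positions come from GENCODE M21 (17680 genes matched). Named genes that overlap a tested gene on the other strand include Col4a1 with Col4a2, Dnmt3l with Aire, Igf2bp3 with Malsu1, Pea15a with Dcaf8 and Ctnnb1 with Ulk4, and their reads may be shared. A few genes that these rules select are not reported here.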

Additional observations from a re-analysis of the deposited data

Results flagged for a closer look

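The following named genes had a knock-out against parental difference in DMSO that differed from the difference with CHIR99021, by the interaction term of edgeR at an adjusted p under 0.05. Values are the log2 difference in DMSO minus that with CHIR99021. Among genes called in DMSO, Col4a1 (-1.06), Col4a2 (-0.91), Sfmbt2 (-0.93), Crocc2 (-0.96), Khdc3 (-1.45), Dnmt3l (-0.42) and Enah (-0.87) were farther above the parental level with CHIR99021 than in DMSO. Nrp2 (2.10), Platr15 (1.31) and Klf4 (0.32) were farther below it with CHIR99021. Zdbf2 (-0.24) was below it less far with CHIR99021, and Susd4 (0.57) above it less far. Sult5a1 (1.25) was higher in DMSO and at -0.24 with CHIR99021, and Islr2 (-1.27), Pirt (-2.06) and Rn18s-rs5 (-0.43) were lower in DMSO and at 0.21, 1.12 and 0.12 with CHIR99021. Among genes not called in DMSO, the Wnt targets and factors Sp5 (8.12), T (6.60), Cdx1 (4.44), Axin2 (4.11) and Tcf7 (0.93) and the adhesion genes Jup (0.33) and Cdh1 (0.25) were lower in the knock-out with CHIR99021, where the value for Cdh1, -0.12, was not called (adjusted p = 0.0731). Tcf7l1 (-0.66) and Sox2 (-0.26) were higher there. The values for Sp5 and T rest on few counts in DMSO.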

How the results depend on the processing

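With relative log expression factors (1186 calls), the stricter filter (1336), the 4 DMSO libraries alone (860), the replicate block (1225, of which 1125 shared) and limma-voom (1164), the count of called genes stayed within 1.5 times 1198. With no filter on low counts it was 2064 (900 higher, 1164 lower) and the interaction count 1990 against 1087; with DESeq2 795, 320 of them higher. Leaving out 1 library gave 357 to 1047 calls (182 to 494 higher, 175 to 553 lower), 605 to 1143 interaction calls, 75 to 216 lower genes on distal chromosome 2 and 10 to 32 higher ones on distal chromosome 1. On distal chromosome 1 the 4 DMSO libraries alone and DESeq2 gave 24 each, against 39. Without the genes of distal chromosomes 1 and 2, an alternative chosen after seeing the data, 786 genes were called, 365 of them lower; the threshold first set for such windows, a median of 0.3 in size, selected none and gave no value. No named gene or count reversed. Same-numbered replicates of the lines in DMSO deviated together with a correlation of -0.06, so the numbers are not shown to pair the libraries. In fits that leave out a library, the lone library of its group is assumed to vary like the other groups. With 2 libraries a group, genes under 1 CPM were called in 0.704% of cases, and small changes there were not detectable at this depth.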
